A study of Mus musculus with 8 samples.

Results

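The small leucine-rich proteoglycans examined here are 9 genes, Dcn, Bgn, Lum, Fmod, Ogn, Aspn, Prelp, Omd and Podn. They were taken by name as members of this protein family, at a time when earlier results of these data were known, and are 9 of the 24963 genes in the deposited table of FPKM, which are fragments scaled to gene length and library total. RNA-seq was performed on uterine tissue taken at gestation day (GD) 3.5 from 4 Nr2f2 f/f and 4 Nr2f2 d/d mice, with 1 library per mouse. Nr2f2 f/f mice carried 2 floxed Nr2f2 alleles and no Cre and served as the control. Nr2f2 d/d mice were Pgr Cre/+; Nr2f2 flox/flox and lost Nr2f2, which encodes the nuclear receptor NR2F2 (COUP-TFII), in cells that express the progesterone receptor. The labels give the strain of both groups as C57B6/J and their age as 8 weeks, the study's methods give 2 to 3 months, and all females had been mated with vasectomized males, so no embryos were present. Cre sits in 1 of the Pgr alleles, so Nr2f2 d/d mice also carried 1 disrupted Pgr allele that the controls lacked, and its effect and that of Nr2f2 loss cannot be told apart. The Pgr-driven Cre acts in uterine epithelium, stroma and myometrium and also outside the uterus, including the ovary.

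Small leucine-rich proteoglycans are secreted proteins of the extracellular matrix with a core of leucine-rich repeats, to which chondroitin, dermatan or keratan sulfate chains are attached in most members. They bind collagen fibrils and set fibril diameter and spacing, and several of them also hold growth factors such as TGF-β in the matrix. In the uterus they are made mainly by stromal fibroblasts and smooth muscle, and in the mouse the decorin and lumican of the stroma before implantation and the biglycan of the decidua are the members most often described.

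Of the 9 genes, 7 lie in 3 clusters of the mm10 genome (GENCODE vM21), with no other protein-coding gene between neighbours. Dcn (chr10:97479609-97518143) and Lum (chr10:97565128-97572703) are on the plus strand, 47.0 kb apart, followed by the family genes Kera and Epyc. Aspn (chr13:49544443-49567565), Omd (chr13:49582462-49592822) and Ogn (chr13:49608046-49624501) are also on the plus strand, with gaps of 14.9 and 15.2 kb, and the family gene Ecm2 lies 11.7 kb before Aspn. Prelp (chr1:133910304-133921414) is on the minus strand, 2.30 kb from the family gene Optc and 116 kb from Fmod (chr1:134037254-134048277), which is on the plus strand. Bgn (chrX:73483602-73495933, plus strand) and Podn (chr4:108014791-108096445, minus strand) stand alone. The libraries were not counted by a stated strand, and 9.68% of the exon bases of Prelp and 0.297% of those of Aspn are shared with a gene on the opposite strand (Gm15851 and Cenpp), so reads of those bases could belong to either gene.

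Promoter sequence from RefSeq (GRCm38.p6, the assembly of mm10) was matched for 7 of the 9 genes in 8 entries, Podn having 2. Dcn and Lum had no entry and were not searched for the motifs below. The 250 bases before the RefSeq start are shown for the 3 neighbours of chromosome 13, which lie next to each other but differ widely in level, and for Bgn, whose mean was lower in Nr2f2 d/d than in Nr2f2 f/f. Each is given 5′ to 3′ on the strand of the gene, at chr13:49607765-49608014 for Ogn, chr13:49582212-49582461 for Omd, chr13:49544193-49544442 for Aspn and chrX:73483351-73483600 for Bgn. Capitals mark a match, on either strand, to 1 of 3 motifs: AGGTCA and GGGTCA, which are half-sites of nuclear receptors (reverse complements TGACCT and TGACCC), and TATAAA (reverse complement TTTATA).
Ogn: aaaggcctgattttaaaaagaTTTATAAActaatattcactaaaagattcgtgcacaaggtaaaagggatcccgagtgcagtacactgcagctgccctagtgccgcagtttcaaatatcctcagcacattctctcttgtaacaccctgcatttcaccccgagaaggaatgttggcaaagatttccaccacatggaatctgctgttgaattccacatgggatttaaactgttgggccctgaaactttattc
Omd: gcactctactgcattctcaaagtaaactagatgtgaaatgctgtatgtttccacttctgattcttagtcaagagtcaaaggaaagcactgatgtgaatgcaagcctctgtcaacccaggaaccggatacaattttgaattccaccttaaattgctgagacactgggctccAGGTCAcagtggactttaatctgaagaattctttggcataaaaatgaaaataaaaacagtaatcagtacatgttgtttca
Aspn: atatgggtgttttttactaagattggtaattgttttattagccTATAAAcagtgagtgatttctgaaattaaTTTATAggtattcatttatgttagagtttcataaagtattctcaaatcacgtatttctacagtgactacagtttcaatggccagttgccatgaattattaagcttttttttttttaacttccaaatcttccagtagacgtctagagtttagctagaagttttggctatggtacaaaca
Bgn: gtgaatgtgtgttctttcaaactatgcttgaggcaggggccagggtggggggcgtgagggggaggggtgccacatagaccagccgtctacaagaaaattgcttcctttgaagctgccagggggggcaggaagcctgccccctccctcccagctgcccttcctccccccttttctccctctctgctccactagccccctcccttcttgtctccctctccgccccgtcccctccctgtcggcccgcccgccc

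AGGTCA was found 80 to 75 bases before the start of Omd. In 1 of the Podn entries it was found on the other strand, 134 to 129 bases before the start, and GGGTCA was found 248 to 243 bases before the start of Prelp. TATAAA was found in Ogn and Aspn on both strands, at 227 to 222 and, on the other strand, 229 to 224 bases before the start of Ogn, where the 2 matches overlap, and at 207 to 202 and 178 to 173 bases before the start of Aspn. The Bgn and Fmod windows held none of the 3. Among all 32851 RefSeq promoter entries, windows of the same length held AGGTCA in 14.0%, GGGTCA in 11.6%, either of them in 23.8% and TATAAA in 12.4%. These matches are letters in a window and were not tested as binding sites. The Bgn window was 64.4% G and C, against 42% for Ogn, 38.4% for Omd and 30% for Aspn.

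Each library held 61200000 to 92700000 fragments, as recovered from the FPKM of short genes (median 62150000 for Nr2f2 f/f and 80850000 for Nr2f2 d/d), and 3 fragments of a gene 1 kb long are worth 0.0324 to 0.0490 FPKM. All 9 genes were above the value of 3 fragments in each of the 8 libraries, the lowest being Omd at 0.157 FPKM against a floor of at most 0.0218. Nr2f2, the targeted gene, was at 25.3, 21.8, 25.7 and 23.5 FPKM in Nr2f2 f/f replicates 1 to 4 and at 9.66, 9.42, 6.90 and 9.74 in Nr2f2 d/d. The group means were 24.1 ± 1.80 and 8.93 ± 1.36 FPKM (SD, n = 4 each), for a log2 change of -1.39 (SE 0.118, limma adjusted p = 0.00549), and every Nr2f2 d/d library was below every control, which is the direction the labels give. Nr2f2 f/f replicate 2 stood apart in some genes of glands and secretion, such as Prss28, at 509.7 FPKM against 0.342 to 50.0 in the other controls, and was also the highest control for Dcn, Prelp, Omd and Podn. Without it the log2 changes were 0.89 for Dcn (limma adjusted p = 0.0109), 1.11 for Ogn (limma adjusted p = 0.0188) and -0.23 for Prelp (limma adjusted p = 0.658). In bulk tissue, fewer cells of a type and less RNA per cell cannot be told apart, and this holds for every level below.

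Whether loss of NR2F2 changed the family was examined by fitting limma to log2(FPKM + 0.5) over the 14323 genes that averaged 0.5 FPKM or more, which included all 9 members, with Benjamini-Hochberg adjustment over all of them. Dcn and Ogn were higher in Nr2f2 d/d at an adjusted p under 0.05, and no member was lower. That is 2 of 9, where 2.62% of all genes tested passed in either direction, 1.09% being higher and 1.53% lower. At the threshold of the study's methods, an unadjusted p under 0.05 with a fold change of at least 1.4, 5 members were higher (Dcn, Lum, Ogn, Omd and Podn) and 0 lower, where 8.8% of all genes tested passed, 4.7% higher and 4.1% lower. Omd passed the filter on low values only through its level in Nr2f2 d/d, and with a filter at 1 FPKM, which Podn in turn passed through its level in Nr2f2 d/d, 4 of the 8 members tested passed. With quantile normalization and with the block by label number, 4 members passed as higher and 1, Bgn, as lower, and Lum did not pass. In that block fit Nr2f2 f/f replicate 2 and d/d replicate 3 carry label numbers that the other group lacks. They add nothing to its log2 changes. The FPKM of the groups did not overlap for 4 members, all higher in Nr2f2 d/d (Dcn, Lum, Ogn and Podn), where 15.4% of all genes tested did not overlap, 5.49% higher and 9.91% lower. Of the 9 log2 changes 6 were above 0 and 3 below, with a median of 0.55, against -0.02 for all genes tested, of which 46.7% were above 0. Of the 375 genes called at the adjusted threshold, 156 were higher and 219 lower, and with median-ratio scaling the split was 192 and 172.

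**Figure D1:**
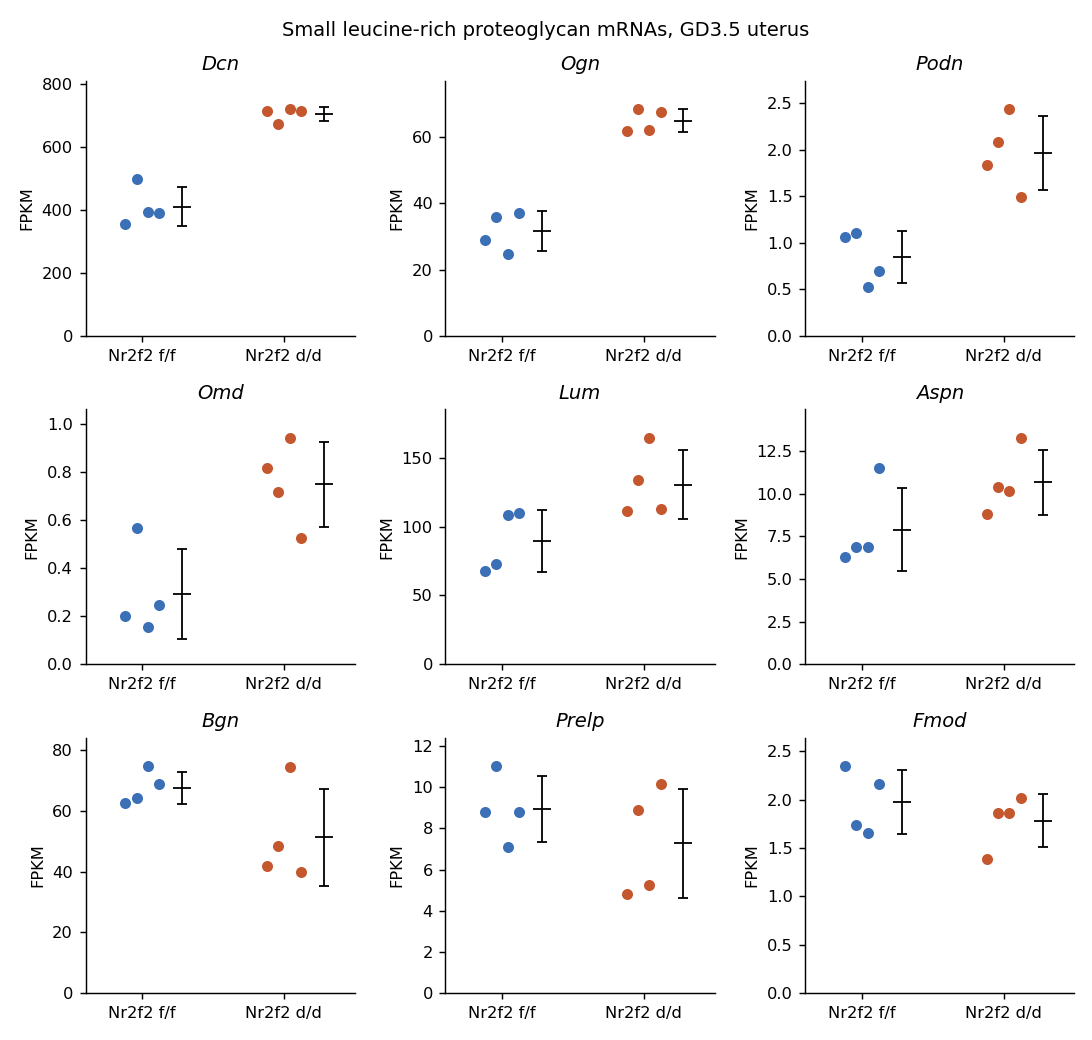
mRNA level of the 9 genes in each library, in FPKM on a linear axis from 0 that differs between genes, with 1 point per mouse and, beside the points, the mean and SD of each group of 4. The points of Dcn, Lum, Ogn and Podn in Nr2f2 d/d lie above all points of Nr2f2 f/f, and those of the other 5 genes overlap.

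Dcn encodes decorin, which carries a single chondroitin or dermatan sulfate chain, coats type I collagen fibrils and binds TGF-β. It was the most abundant member, at 357, 499, 395 and 391 FPKM in Nr2f2 f/f replicates 1 to 4 and at 713, 673, 719 and 713 in Nr2f2 d/d. The lowest Nr2f2 d/d library was above the highest Nr2f2 f/f library, and the controls were more spread. The mean rose from 410.4 ± 61.5 to 705 ± 21.0 FPKM (SD, n = 4 each), 1.72-fold. The log2 change was 0.79 (SE 0.116, limma adjusted p = 0.0192), and a two-sided exact permutation test of the means gave p = 0.0286, the smallest that 4 against 4 mice allow. Ordered by level, Dcn stood 80th to 107th among all genes of the table in the controls and 44th to 64th in Nr2f2 d/d. Its adjusted p was under 0.05 in 4 of the 8 fits that left out 1 library. It was 0.0660 without Nr2f2 f/f replicate 1, 0.0621 without f/f replicate 4, 0.0567 without d/d replicate 1 and 0.0663 without d/d replicate 2, while the log2 change stayed between 0.73 and 0.89.

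Ogn encodes osteoglycin (mimecan), a member with few repeats that was described from bone and cornea and is made by fibroblasts and smooth muscle. Its level was 29.0, 35.9, 24.6 and 37.2 FPKM in Nr2f2 f/f, against 61.8, 68.4, 62.1 and 67.6 in Nr2f2 d/d, so each Nr2f2 d/d library was above every control. The mean rose from 31.7 ± 5.92 to 65.0 ± 3.52 FPKM (SD, n = 4 each), 2.05-fold, with a log2 change of 1.04 (SE 0.132, limma adjusted p = 0.0132, exact permutation p = 0.0286). By p-value it was 44th among the 14323 genes tested and Dcn 88th. The adjusted p of Ogn was 0.0527 without f/f replicate 1 and 0.0636 without d/d replicate 2 and under 0.05 in the other 6 fits, with log2 changes of 0.93 to 1.12.

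Podn encodes podocan, a member first described in kidney and later in the vessel wall. It was a low transcript here, at 1.07, 1.10, 0.525 and 0.699 FPKM in Nr2f2 f/f, against 1.84, 2.08, 2.43 and 1.49 in Nr2f2 d/d, with no overlap. The mean was 0.848 ± 0.282 FPKM in the controls and 1.96 ± 0.397 in Nr2f2 d/d (SD, n = 4 each), the ratio being 2.31. The log2 change on the scale of FPKM + 0.5, which understates the change of low genes, was 0.88 (SE 0.184), and the adjusted p of limma was 0.05001, just past the threshold (exact permutation p = 0.0286). It was on the other side at 0.0482 with a pseudocount of 1, at 0.0497 with median-ratio scaling, at 0.0446 without the mean-variance trend and at 0.0499 without Nr2f2 f/f replicate 2, and reached 0.143 among the other fits that left out a library.

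Omd encodes osteomodulin (osteoadherin), a keratan sulfate proteoglycan of mineralized matrix. It was the lowest member, at 0.202, 0.566, 0.157 and 0.247 FPKM in Nr2f2 f/f, against 0.818, 0.715, 0.942 and 0.524 in Nr2f2 d/d. In Nr2f2 d/d, 3 of the 4 libraries were above all controls, and replicate 4 was below the highest control. The means were 0.293 ± 0.186 and 0.750 ± 0.177 FPKM (SD, n = 4 each), the log2 change was 0.67 (SE 0.185), and neither test passed (limma adjusted p = 0.0947, exact permutation p = 0.0571). The log2 change was 1.19 with a pseudocount of 0.1 and 0.44 with 1, which is under 1.4-fold, so that 4 and not 5 members then passed the threshold of the study's methods. With replicate 2 of Nr2f2 f/f left out, the control at 0.566 FPKM, the log2 change was 0.82 and the limma adjusted p 0.0406. Omd was not tested when d/d replicate 1, 2 or 3 was left out.

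Lum encodes lumican, a keratan sulfate proteoglycan that keeps collagen fibrils thin in cornea and skin. It was the member with the second highest level, at 67.9, 73.0, 108 and 110.1 FPKM in Nr2f2 f/f, against 111, 133, 164 and 113 in Nr2f2 d/d. The groups did not overlap, but the highest control (110.1) and the lowest Nr2f2 d/d library (111) were next to each other. The mean was 89.8 ± 22.4 FPKM in the controls and 130.5 ± 24.7 in Nr2f2 d/d (SD, n = 4 each), with a log2 change of 0.55 (SE 0.1996) and a limma adjusted p of 0.173 (exact permutation p = 0.0286). Lum did not pass the threshold of the study's methods when f/f replicate 1, f/f replicate 2, d/d replicate 2 or d/d replicate 3 was left out. Aspn encodes asporin, which has a run of aspartates in place of the usual chain sites and binds collagen and TGF-β. It was at 6.31, 6.85, 6.90 and 11.5 FPKM in Nr2f2 f/f, against 8.79, 10.4, 10.2 and 13.3 in Nr2f2 d/d. Apart from control replicate 4, all controls were below all Nr2f2 d/d libraries. The means were 7.89 ± 2.42 and 10.7 ± 1.88 FPKM (SD, n = 4 each), and the difference passed neither test (log2 change 0.44, SE 0.196, limma adjusted p = 0.250, exact permutation p = 0.114).

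Bgn, Prelp and Fmod had log2 changes below 0, and none passed either threshold, although Bgn had an unadjusted p of 0.0463 in limma. Bgn encodes biglycan, the closest relative of decorin, which usually carries a pair of chains and, once released from matrix, is a ligand of Toll-like receptors. It was at 62.7, 64.2, 74.7 and 68.7 FPKM in Nr2f2 f/f, against 41.9, 48.5, 74.5 and 40.0 in Nr2f2 d/d. Nr2f2 d/d replicates 1, 2 and 4 were below all controls, and replicate 3 was close to the highest control. The mean was 67.6 ± 5.41 FPKM in the controls and 51.2 ± 16.0 in Nr2f2 d/d (SD, n = 4 each), with a log2 change of -0.44 (SE 0.187, exact permutation p = 0.114, limma adjusted p = 0.228). When Nr2f2 d/d replicate 3 was left out, the log2 change of Bgn was -0.63 and the limma adjusted p 0.0356. With quantile normalization and the block by label number Bgn passed the threshold of the study's methods at -0.51 and -0.66. That block fit, too, takes nothing from d/d replicate 3.

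Prelp encodes a heparin-binding member found where basement membrane meets connective tissue. It was at 8.78, 11.0, 7.10 and 8.81 FPKM in Nr2f2 f/f, against 4.83, 8.89, 5.23 and 10.2 in Nr2f2 d/d, so that Nr2f2 d/d replicates 1 and 3 were below all controls and the other two lay among them. The means were 8.93 ± 1.61 and 7.28 ± 2.66 FPKM (SD, n = 4 each), with a log2 change of -0.33 (SE 0.245, limma adjusted p = 0.474) that ranged from -0.50 to -0.17 when 1 library was left out. Fmod encodes fibromodulin, a collagen-binding member abundant in tendon. It was at 2.35, 1.74, 1.65 and 2.17 FPKM in Nr2f2 f/f, against 1.39, 1.87, 1.86 and 2.02 in Nr2f2 d/d, and the groups overlapped. Its log2 change was the smallest of the 9 at -0.12 (SE 0.135, limma adjusted p = 0.657), with a range of -0.18 to -0.03 when 1 library was left out.

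**Figure D2:**
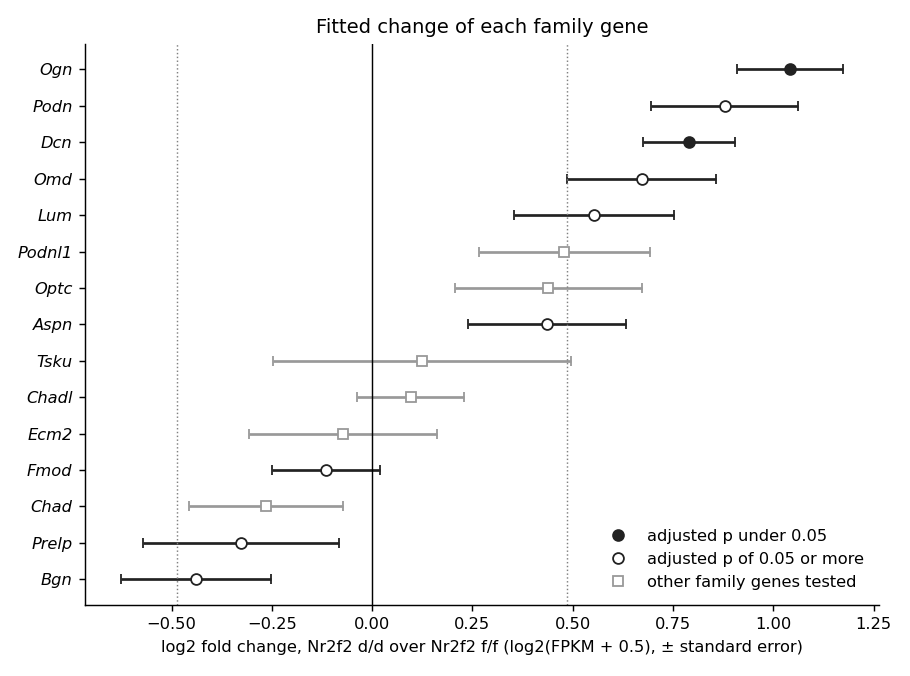
Log2 change of each family gene in Nr2f2 d/d against Nr2f2 f/f on the scale of log2(FPKM + 0.5), from limma on 4 mice per group, with bars of 1 standard error, dotted lines at a fold change of 1.4 and filled symbols for an adjusted p under 0.05 (circles for the 9 genes, grey squares for the 6 other family genes tested). Ogn, at 1.04, and Dcn, at 0.79, passed an adjusted p of 0.05, and Bgn, Prelp and Fmod lie below 0.

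The fitted changes of neighbouring genes are set side by side here, and no difference between genes was tested. On chromosome 13 the log2 changes of Aspn, Omd and Ogn were 0.44, 0.67 and 1.04, all above 0, while that of their neighbour Ecm2 was -0.07. On chromosome 10 those of Dcn and Lum were 0.79 and 0.55, and Kera and Epyc were near the floor. On chromosome 1 Prelp and Fmod were at -0.33 and -0.12, and Optc, next to Prelp, was at 0.44.

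**Figure D3:**
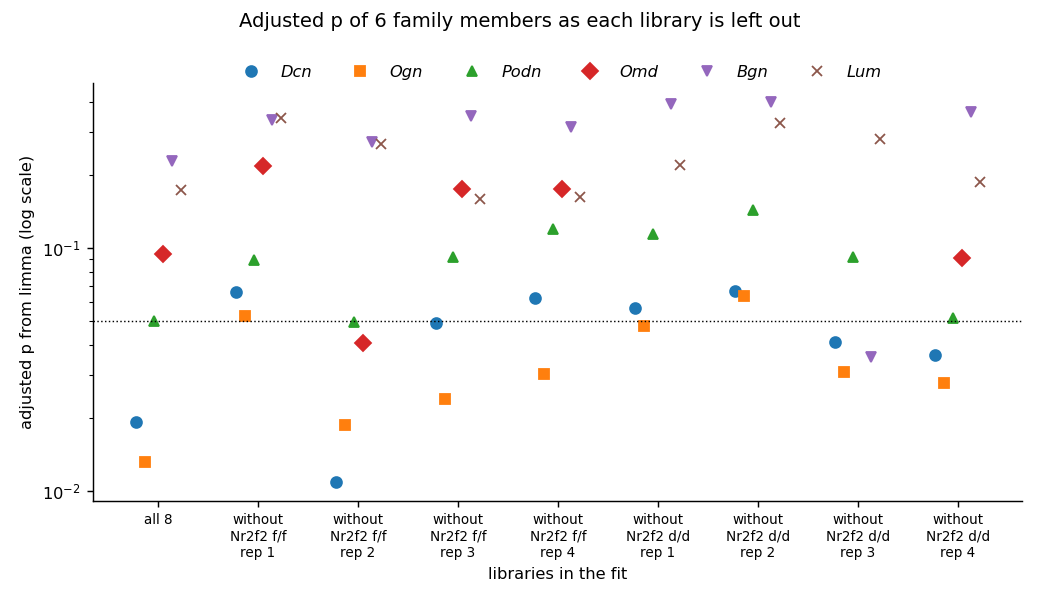
Adjusted p of limma, on a log axis, for 6 of the genes in the fit of all 8 libraries and in each fit that left out 1, with a dotted line at 0.05 and no symbol where Omd was not tested. Dcn lies under the line in 4 and Ogn in 6 of the 8 fits that left out a library, Podn and Omd only without Nr2f2 f/f replicate 2, Bgn only without Nr2f2 d/d replicate 3 and Lum in none.

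Because FPKM are per length, levels were also compared between members within a library. In Nr2f2 f/f the order by mean was Dcn, Lum, Bgn, Ogn, Prelp, Aspn, Fmod, Podn and Omd. The ranges of Lum and Bgn, of Prelp and Aspn and of Podn and Omd overlapped, and all other neighbours were apart. Lum was nonetheless above Bgn in 4 of 4 control libraries and Prelp above Aspn in 3 of 4. In Nr2f2 d/d the order was Dcn, Lum, Ogn, Bgn, Aspn, Prelp, Podn, Fmod and Omd, so Ogn stood before Bgn, Aspn before Prelp and Podn before Fmod. The ranges within each of these pairs overlapped in Nr2f2 d/d, where Ogn was above Bgn in 3 of 4 libraries, Aspn above Prelp in 4 of 4 and Podn above Fmod in 3 of 4.

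The ratios of these pairs are given as descriptions, with no test. Ogn was 0.463, 0.559, 0.330 and 0.542 of Bgn in Nr2f2 f/f, against 1.48, 1.41, 0.833 and 1.69 of it in Nr2f2 d/d. Podn was 0.455, 0.632, 0.318 and 0.323 of Fmod in Nr2f2 f/f, against 1.32, 1.12, 1.31 and 0.740 of it in Nr2f2 d/d. Both ratios were higher in all Nr2f2 d/d libraries than in any control. The Aspn to Prelp ratio was 0.622 to 1.30 in Nr2f2 f/f and 1.17 to 1.95 in Nr2f2 d/d, and overlapped. Bgn was 0.176, 0.129, 0.189 and 0.176 of Dcn, its closest relative, in Nr2f2 f/f, against 0.0587, 0.0721, 0.104 and 0.0561 of it in Nr2f2 d/d. That ratio did not overlap either, and Nr2f2 d/d replicate 3, the library in which Bgn was close to the highest control, was below the lowest control. Other ratios to Dcn did overlap. Lum was 0.146 to 0.281 of Dcn in Nr2f2 f/f and 0.156 to 0.228 of it in Nr2f2 d/d, and Ogn 0.0624 to 0.0952 and 0.0863 to 0.102.

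**Figure D4:**
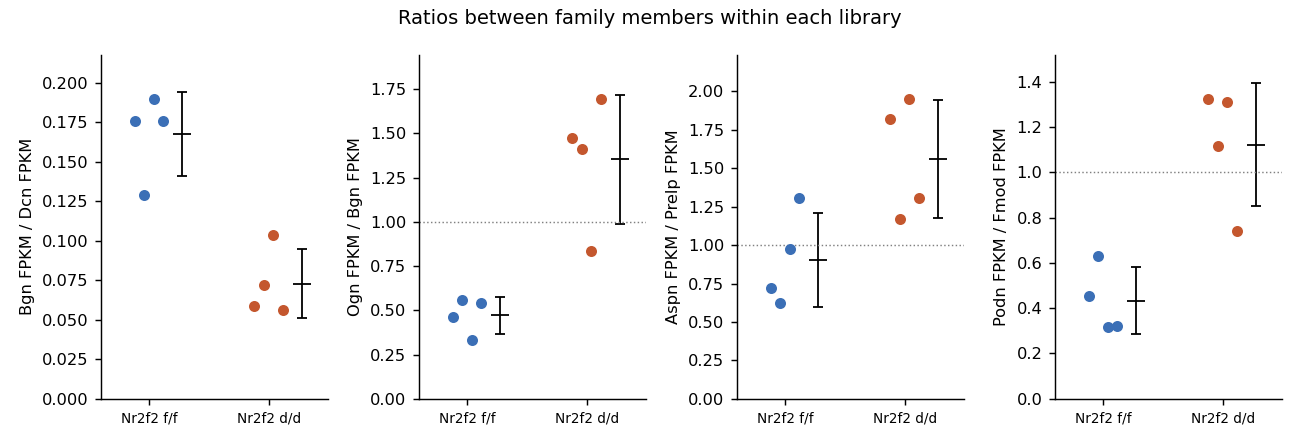
Ratios of FPKM between members of the family in each library, with 1 point per mouse, the mean and SD of each group of 4 beside the points, and a dotted line at 1 where it lies within the axis. The mean ratio of Bgn to Dcn was 0.167 in the controls and 0.0726 in Nr2f2 d/d with no overlap, and that of Ogn to Bgn was 0.473 and 1.35.

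The 9 genes summed to 535, 693, 618 and 631 FPKM in Nr2f2 f/f, against 945, 948, 1041 and 961 in Nr2f2 d/d, which is 0.184% ± 0.0201 and 0.279% ± 0.0135 of the summed FPKM of a library (SD, n = 4 each). Every Nr2f2 d/d library was above every control, and most of the difference was Dcn: without it the sums were 209 ± 27.7 and 269 ± 39.0 FPKM and overlapped (178 to 239 and 232 to 322). Dcn made up 66.1% ± 4.35 of the sum in Nr2f2 f/f, against 72.4% ± 2.88 in Nr2f2 d/d. The share of Bgn was 11.0% ± 1.26 and 5.22% ± 1.36, that of Prelp 1.44% ± 0.224 and 0.752% ± 0.288, and that of Fmod 0.325% ± 0.0857 and 0.183% ± 0.0273, and for these 3 genes the groups did not overlap. Their FPKM did overlap, and a rise of Dcn, the largest part of the sum, lowers the share of any gene whose level is flat. The lower shares are therefore not a separate result, and how many of all genes would separate on this sum was not computed. The share of Ogn, 3.98% to 5.90% in Nr2f2 f/f and 5.96% to 7.21% in Nr2f2 d/d, did not overlap either and was higher in Nr2f2 d/d. Lum made up 14.5% ± 3.50 and 13.3% ± 1.96, which overlapped. Shares add up to a whole and are not independent of each other.

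The other small leucine-rich proteoglycans that were listed are Epyc, Kera, Optc, Chad, Chadl, Nyx, Tsku, Ecm2 and Podnl1, of which 6 of 9 were tested. In limma none passed either threshold or had an unadjusted p under 0.05, and their median log2 change was 0.11. With median-ratio scaling, and without Nr2f2 f/f replicate 3, d/d replicate 1 or d/d replicate 2, 1 of them passed the threshold of the study's methods. Podnl1, the closest relative of Podn, was at 0.502 ± 0.216 FPKM in Nr2f2 f/f, against 0.893 ± 0.308 in Nr2f2 d/d (SD, n = 4 each, log2 change 0.48, limma adjusted p = 0.245). Optc was at 2.08 ± 0.252 and 3.16 ± 1.34 FPKM (log2 change 0.44, limma adjusted p = 0.319) and Chad at 1.09 ± 0.385 and 0.798 ± 0.146 (log2 change -0.27, limma adjusted p = 0.457). Tsku, at 11.99 and 11.92 FPKM, Ecm2, at 4.58 and 4.15, and Chadl, at 0.850 and 0.954, had log2 changes of 0.12, -0.07 and 0.10. Epyc and Kera did not exceed 0.032 and 0.042 FPKM in any library and were at or below the value of 3 fragments in 6 and 4 of the 8, and Nyx was at 0.151 and 0.133 FPKM.

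Genes that act with the family were examined as 6 lists, whose counts stand beside 2.62% of all genes tested at the adjusted threshold and 8.8% at that of the study's methods. A single call in lists of this size is not a result about the list. Of 26 enzymes tested that build or sulfate glycosaminoglycan chains, 1 was higher and 0 lower at the adjusted threshold (2 and 2 at the threshold of the study's methods, median log2 change 0.02, the 4 becoming 2 with the block by label number). The gene past the adjusted threshold was Chst11, a chondroitin 4-O-sulfotransferase, whose level rose from 7.38 ± 1.23 to 12.4 ± 1.26 FPKM (SD, n = 4 each, log2 change 0.72, SE 0.123, limma adjusted p = 0.0281). The collagens listed, the partners that most members bind, were fibrillar, fibril-associated or, for Col6a1, Col6a2 and Col6a3, of type VI. Of 13 tested, 1 was higher and 0 lower at the adjusted threshold, with a median log2 change of 0.89. At the other threshold 11 were higher, those of type VI among them, and 1 was lower. These 12 became 6 without Nr2f2 f/f replicate 1, 7 without f/f replicate 2 and 7 with the block by label number, and were 8 to 11 in the other fits that left out a library. Col1a2, the α2 chain of type I collagen, rose from 237 ± 45.9 to 694 ± 339 FPKM (SD, n = 4 each, log2 change 1.46, SE 0.302, limma adjusted p = 0.0484). Of 18 alternatives the call of Chst11 held in 11 and that of Col1a2 in 6, with log2 changes of 0.63 to 0.83 and 1.07 to 1.65.

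Collagen levels differed among the Nr2f2 d/d libraries more than those of Dcn or Ogn. Col1a2 was at 595, 562, 1191 and 429 FPKM in Nr2f2 d/d replicates 1 to 4, and the collagen list summed to 1007 to 1525 FPKM in Nr2f2 f/f and 1830 to 5498 in Nr2f2 d/d. Nr2f2 d/d replicate 3 was far above the others in Col1a1, at 1141 FPKM against 314 to 533, and was also the Nr2f2 d/d library with the highest Bgn, Lum, Podn and Omd, and of Dcn too, although at 719 FPKM it was close to the others there. Dcn per Col1a1 was 1.78 to 4.20 in Nr2f2 f/f and 0.630 to 2.27 in Nr2f2 d/d, and Dcn per Col3a1 was 0.776 to 1.42 and 0.558 to 1.42. Both overlapped.

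Of 17 growth factors and receptors tested that members of the family are known to bind, 0 were higher and 1 lower at the adjusted threshold (2 and 2 at the other, median log2 change -0.02). The 4 became 2 with the replicate block and without Nr2f2 f/f replicate 1 or d/d replicate 3. The gene past the adjusted threshold was Kdr, the main VEGF receptor of endothelium, which went from 13.7 ± 2.00 down to 8.60 ± 1.27 FPKM (SD, n = 4 each, log2 change -0.64, SE 0.130, limma adjusted p = 0.0457). Of 9 proteases that cut members of the family, 1 was higher and 0 lower by either threshold (median log2 change 0.05), and 3 passed that of the study's methods without Nr2f2 f/f replicate 3 or d/d replicate 4 and 2 without f/f replicate 4 or with quantile normalization. The gene past both was Gzmb, granzyme B of cytotoxic lymphocytes, which rose from 28.6 ± 8.77 to 95.1 ± 32.8 FPKM (SD, n = 4 each, log2 change 1.69, SE 0.303, limma adjusted p = 0.0328). Of 16 other proteoglycan core proteins, 0 were higher and 1 lower at the adjusted threshold (0 and 2 at the other, median log2 change 0.09), namely Gpc6, a glypican of the cell surface, which went from 9.35 ± 1.02 down to 4.32 ± 0.827 FPKM (SD, n = 4 each, log2 change -1.04, SE 0.142, limma adjusted p = 0.0151). Of 4 genes of propeptide processing, which trims biglycan, osteoglycin and the collagens, none passed either threshold or had an unadjusted p under 0.05 (median log2 change -0.36), and 1 passed that of the study's methods without Nr2f2 f/f replicate 4 or d/d replicate 4. The 3 with the smallest p were Tll1, with a log2 change of -1.63 and an SE of 0.867 (limma adjusted p = 0.319) and 31.4 FPKM in Nr2f2 f/f replicate 2 against 1.49 to 6.42 in the other controls, Bmp1 at -0.09 (0.615) and Pcolce at 0.19 (0.630). The call held in 7 of 18 alternatives for Kdr, 10 for Gzmb and 14 for Gpc6, and Nr2f2 f/f replicate 1 and d/d replicate 1 were among the libraries without which each of the 3 was lost.

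Markers of the cell types in the tissue also moved, and their part in the results above was not tested. None of 10 fibroblast and stroma markers passed the adjusted threshold and 2, Vim and Thy1, were lower at the other. Of their log2 changes 3 were above 0 (Mfap5, Fbln1 and Pi16) and 7 below, with a median of -0.13. Their sum was 919.8 to 1073 FPKM in Nr2f2 f/f and 736 to 812 in Nr2f2 d/d, and without Vim, left out after its values were seen, the sums overlapped at 519.8 to 659 and 511 to 561 FPKM. Dcn per summed marker FPKM was 0.388 to 0.465 in Nr2f2 f/f and 0.877 to 0.969 in Nr2f2 d/d, and 0.599 to 0.865 and 1.25 to 1.39 without Vim. For Ogn these values were 0.0263 to 0.0378 and 0.0784 to 0.0919, or 0.0373 to 0.0622 and 0.111 to 0.132 without Vim. For Lum they were 0.0680 to 0.116 and 0.139 to 0.207, or 0.127 to 0.172 and 0.212 to 0.293, so that for these 3 genes the groups did not overlap with either sum. With the full sum this had to follow, since the 3 genes were higher and the sum lower without overlap, so it adds nothing to those results. The share of all genes that would separate in this way was not computed. For Bgn they overlapped, at 0.0598 to 0.0799 and 0.0492 to 0.0941, or 0.107 to 0.121 and 0.0783 to 0.133. None of 8 smooth muscle markers passed either threshold or had an unadjusted p under 0.05, and their sums overlapped at 1297 to 1825 and 1041 to 2561 FPKM.

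Of the other marker lists, 2 of 7 mesothelium markers were higher at the adjusted threshold, which 1.09% of all genes tested passed as higher and 1.53% as lower. They were Msln and Cldn15, with list sums of 80.7 to 109.9 and 106 to 132 FPKM. For epithelium 1 of 8 was higher (757 to 813 and 979 to 1097 FPKM), and for endothelium 4 of 7 were lower (265 to 354 and 165 to 211 FPKM). For T and NK cells 1 of 6 was higher, Cd3d, at means of 0.375 and 0.965 FPKM, which passed the filter on low values only through its level in Nr2f2 d/d (list sums of 33.9 to 54.0 and 42.5 to 234 FPKM), and of 7 macrophage markers 0 passed (161 to 337 and 281 to 499 FPKM). Of the 2 adipocyte markers tested Lpl was higher, with list sums of 5.55 to 14.0 and 14.4 to 33.6 FPKM and Lep under 0.1 FPKM in all libraries. No gland, ovary or oviduct marker passed, of 5, 2 and 1 tested. Their sums were 32.6 to 1959 and 30.5 to 65.5 FPKM for gland, 3.08 to 3.75 and 3.32 to 5.58 for ovary, where Cyp19a1 and Zp3 were under 0.1 FPKM, and 8.75 to 27.7 and 4.83 to 54.1 for oviduct.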

How the data were processed

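RNA-seq was performed by the authors on total RNA of uterine tissue from 8 mice. The unit of the deposited table is FPKM. The authors state trimming adaptors with cutadapt 1.12, aligning paired-end reads to mm10 with STAR 2.5.2b and counting fragments per gene with featureCounts 1.5.0-p1. The processing notes also list Cufflinks 2.0.2. The tool and formula that gave the FPKM, the gene annotation, gene lengths and strand setting are not given in the sources used here. FPKM are relative to the library total, so very abundant transcripts shift all others. The counts behind the authors' DESeq2 test were not used here.

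Groups came from the sample labels. Replicate numbers follow the sample titles, and all 8 columns were matched by name, with 0 left unmatched. Of the 24963 genes, 24378 were matched to 1 gene of GENCODE vM21 for coordinates and 3893 were at 0 in all libraries. Library totals were estimated as the total at which the FPKM of short genes of 1 exon became whole fragments (83.4% to 89.6% whole within 0.1 fragment), and floors cover counting error only.

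Values were taken to log2 after adding 0.5, and the 14323 genes averaging 0.5 FPKM or more were tested with limma 3.58.1 (R 4.3.3; lmFit, eBayes with a trend, two-sided) and Benjamini-Hochberg adjustment. On simulated data for Nr2f2 d/d against Nr2f2 f/f over 14323 genes, this fit recovered 101 of 106 genes changed 4-fold and 63 of 94 changed 2-fold, with 11 false calls in 175. Exact permutation tests of mean FPKM were two-sided (scipy 1.17.1, Python 3.11.15). The members, the lists of genes and markers and the rules were chosen with earlier results of these data known. Named genes are all members, Nr2f2, all other listed family genes and, in each other list, those with an adjusted p under 0.05 or, failing any, the 3 with the smallest p; the marker genes, Prss28, Col1a1 and Col3a1 were named outside this rule, after their values were seen. Alternatives changed the pseudocount, filter, scaling, variance model, replicate block and the libraries included.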

Additional observations from a re-analysis of the deposited data

Results flagged for a closer look

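In 5 of 38 groups of 4 libraries checked (the members, Nr2f2 and the other family genes in each genotype), 1 library stood apart, its gap to the nearest other being past Dixon's criterion for a group of 4, which chance alone gives in about 5% of groups. Dcn in Nr2f2 d/d replicate 2 was at 673 FPKM, below 713 to 719 in the others, and still above all controls. Aspn in Nr2f2 f/f replicate 4 was at 11.5 FPKM, above 6.31 to 6.90 in the other controls, and this library alone made the groups overlap. Nr2f2 in Nr2f2 d/d replicate 3 was at 6.90 FPKM, below 9.42 to 9.74, in the library with the highest sum over the collagen list. Kera in Nr2f2 f/f replicate 4 was at 0.042 FPKM, above 0.007 to 0.008, where both values are near the level of a few fragments. Chadl in Nr2f2 f/f replicate 3 was at 0.972 FPKM, above 0.797 to 0.820.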

How the results depend on the processing

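All 9 members kept the sign of their log2 change under every alternative in which they were tested. The deviations of mice with the same title number correlated at -0.204, -0.172, 0.0452 and -0.0403. Those of mice with the same number inside the labels correlated at -0.204, 0.149 and -0.0403. Neither set of values shows a pairing of the mice, and so few values cannot exclude one. With the title number as a replicate block, 0 members passed the adjusted threshold instead of 2. The limma adjusted p was 0.133 for Dcn (0.79), 0.0714 for Ogn (1.04) and 0.0714 for Nr2f2 (-1.39). With the number inside the labels as the block also 0 passed. There it was 0.0918 for Dcn (0.88), 0.0918 for Ogn (1.13) and 0.0619 for Nr2f2 (-1.32). In this second block f/f replicate 2 and d/d replicate 3 have numbers that the other group lacks. Its log2 changes therefore rest only on the mice whose label number occurs in both groups. Both blocks also leave fewer degrees of freedom, and over all genes the calls went from 375 to 1 and 0. A marker sum without Vim was added after seeing the data. Podn passed the adjusted threshold with a pseudocount of 1 (log2 change 0.68), median-ratio scaling (0.90) and no trend (0.88). Of the 91 genes tested in the lists, 5 passed the adjusted threshold, 3 with no filter and 0 with either block, and 23 passed that of the study's methods, 15 with the block by label number.

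Leaving out 1 library at a time, 0 to 4 members passed the adjusted threshold (0 without Nr2f2 f/f replicate 1 or d/d replicate 2, 1 without f/f replicate 4 or d/d replicate 1, 4 without f/f replicate 2). At the threshold of the study's methods 3 to 6 passed (3 without d/d replicate 2, and 3 higher with Bgn lower without d/d replicate 3). Without d/d replicate 1, 2 or 3 only 8 members were tested, Omd falling under the filter, so the range of Omd below is from 5 fits. Log2 changes ranged from -1.44 to -1.28 for Nr2f2, 0.73 to 0.89 for Dcn, 0.93 to 1.12 for Ogn, 0.75 to 0.98 for Podn, 0.59 to 0.82 for Omd, 0.43 to 0.66 for Lum, 0.33 to 0.62 for Aspn, -0.63 to -0.34 for Bgn, -0.50 to -0.17 for Prelp and -0.18 to -0.03 for Fmod. Of the listed genes 0 to 6 passed the adjusted threshold (0 without f/f replicate 1 or d/d replicate 1, 1 without f/f replicate 4 or d/d replicate 2) and 15 to 25 the other (15 without f/f replicate 1), and over all genes 42 to 348 and 1082 to 1442 passed. With 4 mice a group the exact test cannot go below 0.0286.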
